A study of Mus musculus with 10 samples.

Results

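The meningeal and pericyte genes Rgs5, Pdgfrb, Cxcl12, Foxc1, Col1a1, Col1a2, Col3a1, Dcn and Lum were followed in RNA sequencing of mouse dorsal telencephalon taken on embryonic day 12. They were chosen by name as genes of pericytes, mesenchyme and meninges, and make up 9 of the 38803 symbols listed per library. The mutants (5 libraries) carried Rnu11 Flx/Flx with Emx1-Cre, and the controls (5 libraries) Rnu11 WT/Flx with Emx1-Cre. Rnu11 encodes the U11 small nuclear RNA of the minor spliceosome, which removes a rare class of introns. The strain is given as C57/Bl6 - 129 SvJ throughout. Controls shared Cre and 1 floxed copy with the mutants, so neither is compared here with tissue free of both. Emx1-Cre is used to recombine genes in the neural progenitors of the cortex, while vessels and meninges come mainly from other lineages.

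The meninges are the connective tissue sheets around the brain. Their fibroblasts derive from neural crest and mesoderm, lay down fibrillar collagen and secrete signals to the cortex and its vessels. Pericytes are the contractile support cells that wrap small vessels, and they are drawn to sprouting endothelium by platelet-derived growth factor. In a dissected telencephalon both are minor populations beside neural progenitors and neurons.

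None of the 9 genes differed between mutants and controls past the threshold. Of the 13522 tested genes, 21 (0.155%) passed, 0.0887% higher and 0.0666% lower in mutants, and 0 of the 9 members did (limma, Benjamini-Hochberg adjusted p under 0.05). By an unadjusted p under 0.05 the members also numbered 0, against 8.76% of all tested genes. In 0 of the 9 were the mutant and control libraries free of overlap, against 1.9% of all tested genes. A second contrast cut across the genotypes. The collagen I genes Col1a1 and Col1a2 were lower in 3 libraries, mutant 4, mutant 5 and control 5, than in the other 7, while Lum and Dcn did not pass the test there.

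These 3 libraries stood apart by a gene outside the members. Their Rnu12, the small nuclear RNA that works beside U11, ran from 487 to 688 FPKM (fragments scaled to transcript length and to the size of the library), against 5.91 to 33.8 FPKM in the other 7. They are called the second library set here and the other 7 the first. The sets were defined from the data, the labels name no batch, and the second set holds a single control. Rnu11 itself averaged 892 ± 458 FPKM in mutants and 2283 ± 353 FPKM in controls (SD, n = 5 each), and each mutant lay below each control. The mutants differed by set, at 473 to 712 FPKM in the first and at 1344 and 1421 FPKM in mutant 4 and mutant 5. Depths, roughly estimated, ran from about 9618473 fragments in control 4 to about 21369512 fragments in mutant 5. Foxc1 in control 4, its lowest value, rested on about 76 fragments, against about 360 in control 2.

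Levels per length put Col3a1 first among the 9, at a mean of 48.5 ± 18.3 FPKM over the 10 libraries (SD). Lum followed at 24.96 ± 6.05 FPKM, and each of the 10 libraries held more Col3a1 than Lum and more Lum than Col1a2. Col1a2, at 13.9 ± 6.47 FPKM, and Dcn, at 13.2 ± 3.83 FPKM, could not be ordered, since Col1a2 was the higher in 6 of 10 libraries. Cxcl12 at 8.47 ± 3.27 FPKM lay below Dcn in all 10 libraries. It exceeded Col1a1, at 6.16 ± 3.78 FPKM, in 8 of 10. Rgs5 at 3.38 ± 1.145 FPKM lay above Foxc1 at 2.23 ± 0.698 FPKM in each library, and Foxc1 exceeded Pdgfrb, at 2.11 ± 0.706 FPKM, in 7 of 10. All 9 reached 1 FPKM in all 10 libraries and all 9 were tested. The low rank of the pericyte markers and the high rank of Col3a1, a major collagen of loose connective tissue, describe RNA in bulk tissue. In such samples fewer cells of a type and less RNA per cell cannot be told apart.

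The label was checked against markers outside the 9, of which part were at or near 0. Of 18 other genes listed for pericytes and vascular smooth muscle, 9 averaged under 1 FPKM. The pericyte potassium channel genes Kcnj8 and Abcc9 were present at 1.77 to 5.26 and 1.12 to 2.78 FPKM. The pericyte genes Cspg4 and Higd1b lay lower, at 0.111 to 0.651 and 0 to 0.417 FPKM. Of the smooth muscle genes, Acta2 and Tagln lay at 0.757 to 5.08 and 1.75 to 6.98 FPKM. The myosin gene Myh11 stayed at 0.0124 to 0.126 FPKM. Of 22 other meningeal fibroblast genes, 6 averaged under 1 FPKM, with Foxd1 at 0.445 to 1.34 FPKM and Foxc2 at 0.0498 to 0.583 FPKM. Myf5, the early determination gene of skeletal muscle, was listed at 0 in all 10 libraries, and Myod1 at 0 in 9. The skin keratin gene Krt14 was listed at 0 in 9 libraries. Of the cartilage, bone and muscle genes 10 of 13 averaged under 1 FPKM, and of the surface ectoderm genes 7 of 9. Among those above it were Col2a1, at 24.4 FPKM in mutants and 22.9 FPKM in controls, and Sox9, at 6.99 FPKM in mutants and 6.91 FPKM in controls. Sox9 is also a gene of neural progenitors.

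The windows before the transcription start are shown for 2 collagen genes whose levels moved together, for the pericyte gene Rgs5 and for the meningeal regulator Foxc1. Each runs over the 150 bases before the start in RefSeq (GRCm38.p6, plus strand, 5' to 3'). Capitals mark 3 motifs searched on both strands. The first is the CCAAT box, which reads ATTGG on the minus strand. The next is TATAAA, which reads TTTATA there. The last is the GC box GGGCGG, which reads CCGCCC there.
Col1a2, chr6:4505468-4505617: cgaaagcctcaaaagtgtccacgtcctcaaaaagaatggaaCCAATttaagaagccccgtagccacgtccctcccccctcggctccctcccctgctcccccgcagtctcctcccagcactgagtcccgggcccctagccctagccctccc
Col3a1, chr1:45311388-45311537: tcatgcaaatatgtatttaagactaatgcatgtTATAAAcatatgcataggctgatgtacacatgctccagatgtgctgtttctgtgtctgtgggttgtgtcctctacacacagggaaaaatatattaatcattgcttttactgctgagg
Rgs5, chr1:169655351-169655500: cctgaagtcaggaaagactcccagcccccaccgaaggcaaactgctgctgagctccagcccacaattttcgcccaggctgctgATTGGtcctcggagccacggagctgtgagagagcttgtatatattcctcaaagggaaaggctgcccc
Foxc1, chr13:31806496-31806645: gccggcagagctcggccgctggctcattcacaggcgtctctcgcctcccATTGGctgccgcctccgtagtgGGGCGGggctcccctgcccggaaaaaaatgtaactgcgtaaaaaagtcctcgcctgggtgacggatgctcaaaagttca

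Windows of 5 of the 9 members were used, the fifth being that of Cxcl12. Searched over 250 bases before the start, Col1a2 held a CCAAT box beginning 109 bases before it, Rgs5 a reversed one 67 bases before it and Foxc1 a reversed one 101 bases before it. Of all 32851 windows of that length in the table, 33.8% held such a box. Col3a1 held none of these and a TATAAA 117 bases before the start, a motif of 12.4% of windows. Cxcl12 held 5 GC boxes, Col1a2 2 and Foxc1 1, against at least 1 in 32.7% of windows. Over those 250 bases the Col3a1 window had 35.2% G and C, the Col1a2 window 62%, the Rgs5 window 53.6% and the Foxc1 window 70.8%. The 2 collagen windows thus shared none of the 3 motifs. A match or its absence in these letters is a description only.

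**Figure D1:**
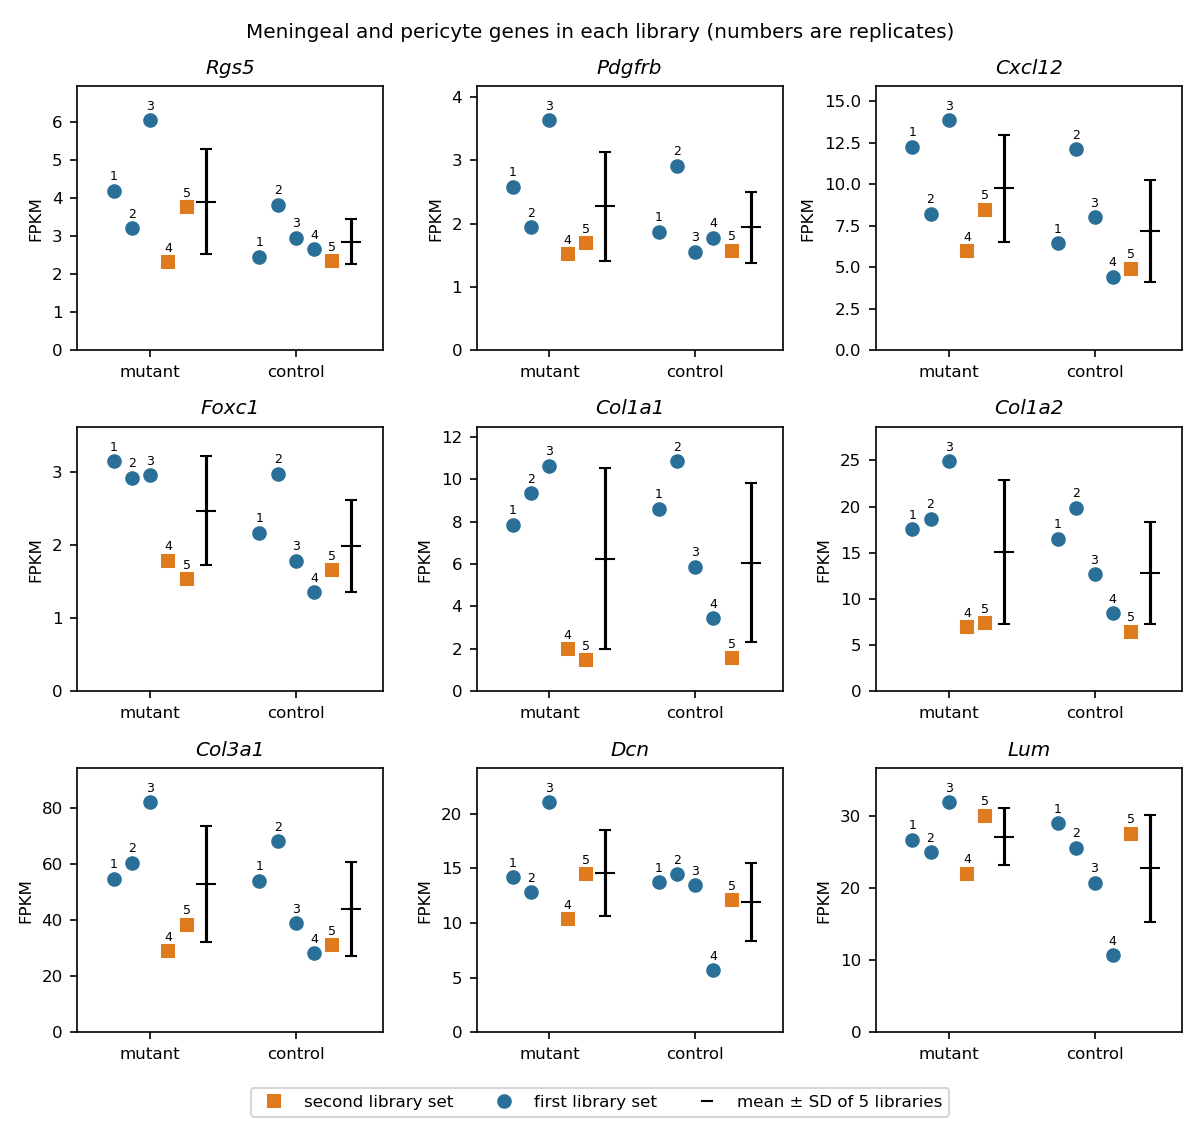
Level of each of the 9 genes in FPKM (y axis, from 0), with mutants left and controls right, 1 point per library labelled by its replicate number, and the mean ± SD of the 5 libraries beside each group. Squares mark the second library set, mutant 4, mutant 5 and control 5, which lie lowest for Col1a1 and Col1a2, and control 4 lies lowest for Dcn and Lum.

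Rgs5 encodes a regulator of G-protein signalling used as a marker of pericytes. It lay at 4.19, 3.21, 6.03, 2.32 and 3.75 FPKM in mutants 1 to 5, and at 2.46, 3.83, 2.96, 2.66 and 2.35 FPKM in controls 1 to 5. Mutant 3 was the highest and mutant 4 the lowest of all libraries, so the mutants covered the whole range of the controls. The mean was 3.90 ± 1.38 FPKM in mutants and 2.85 ± 0.592 FPKM in controls (SD, n = 5 each). The log2 difference was 0.32 (95% interval -0.09 to 0.72, limma, adjusted p = 0.641).

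Pdgfrb, on chromosome 18 from 61045150 to 61085061 (GRCm38), encodes the receptor through which pericytes respond to platelet-derived growth factor B. It lay at 2.58, 1.95, 3.63, 1.52 and 1.70 FPKM in mutants 1 to 5, and at 1.88, 2.92, 1.56, 1.78 and 1.58 FPKM in controls 1 to 5. Its highest values, in mutant 3 and control 2, belonged to different genotypes. The log2 difference was 0.14 (95% interval -0.26 to 0.53, limma, adjusted p = 0.839).

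Of 5 other ligand and receptor genes listed for this pathway, 4 were tested and 0 passed. Pdgfb, the endothelial ligand of Pdgfrb, averaged 1.90 FPKM in mutants and 1.88 FPKM in controls (difference of mean log2 values -0.0027, of the opposite sign, limma, adjusted p = 0.998). Pdgfa, which acts on the other receptor, had the smallest p at a log2 difference of 0.24 (adjusted p = 0.654), followed by that receptor's gene, Pdgfra, at 0.20 (adjusted p = 0.696). Set per unit of the summed endothelial genes, Rgs5 was 0.0458 in mutants and 0.0393 in controls on average (exact two-sided permutation test, p = 0.238). Pdgfrb was 0.0266 in mutants and 0.0263 in controls (exact two-sided permutation test, p = 0.849). For either pericyte gene the ratio thus overlapped between the genotypes.

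Of the 18 other pericyte and smooth muscle genes 9 were tested, and 0 passed in either direction. Their median log2 difference was 0.12, where all tested genes had a median of 0.11. Mcam, an adhesion molecule of pericytes and endothelium, had the smallest p. It averaged 6.36 ± 0.889 FPKM in mutants and 4.23 ± 1.18 FPKM in controls (SD, n = 5 each, log2 difference 0.51, limma, adjusted p = 0.357).

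Cxcl12 encodes the chemokine by which the meninges hold Cajal-Retzius cells and guide interneurons at the cortical surface. It lay at 12.3, 8.23, 13.9, 5.97 and 8.48 FPKM in mutants 1 to 5, and at 6.46, 12.1, 8.01, 4.45 and 4.92 FPKM in controls 1 to 5. Its log2 difference was 0.42 (95% interval -0.15 to 0.99, limma, adjusted p = 0.658) and 0.29 without control 4, with 4 of 5 mutants above the control median. Control 2 stood among the mutants, and control 4 and control 5 were the lowest of the 10. Neither of its receptors passed. Cxcr4 averaged 25.8 ± 2.42 FPKM in mutants and 22.4 ± 5.10 FPKM in controls (SD, n = 5 each, adjusted p = 0.673), and Ackr3, the scavenging receptor, lay at a log2 difference of 0.04 (adjusted p = 0.958).

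Foxc1 encodes a forkhead transcription factor needed for the meninges to form over the forebrain in mice. It lay at 3.15, 2.93, 2.97, 1.79 and 1.54 FPKM in mutants 1 to 5, and at 2.18, 2.98, 1.79, 1.36 and 1.66 FPKM in controls 1 to 5. Mutants 1 to 3 were close to each other and matched only by control 2. Mutant 4 and mutant 5 lay within the range of the other controls. The log2 difference was 0.21 (95% interval -0.19 to 0.61, limma, adjusted p = 0.753).

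Of the 22 other meningeal fibroblast genes 17 were tested and 0 passed. Their median log2 difference was 0.10, and 8 of the 17 lay above the median of all genes. Prrx2 and Osr1, transcription factor genes of mesenchyme, had the smallest p. Prrx2 averaged 2.28 ± 0.791 FPKM in mutants and 1.29 ± 0.343 FPKM in controls (SD, n = 5 each, log2 difference 0.50, limma, adjusted p = 0.436). Osr1 averaged 1.98 ± 0.360 FPKM in mutants and 1.30 ± 0.467 FPKM in controls (log2 difference 0.39, adjusted p = 0.516). The summed FPKM of the whole list, Cxcl12, Foxc1, Dcn and Lum included, ran from 198 to 235 in mutants and from 176 to 208 in controls. That sum is carried largely by Zic1 and Crabp2, at 51.9 and 43.7 FPKM in mutants against 46.0 and 42.4 FPKM in controls, and other cells of the dorsal midline also express Zic1.

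Col1a1 and Col1a2 encode the chains of type I collagen, the fibre of dura, bone and skin. Col1a1 lay at 7.86, 9.35, 10.6, 2.00 and 1.46 FPKM in mutants 1 to 5, and at 8.60, 10.8, 5.88, 3.44 and 1.57 FPKM in controls 1 to 5. Its highest library held 7.39 times the level of its lowest, the widest range of the 9, and both ends of the range had members of each genotype. Its mean was 6.26 ± 4.25 FPKM in mutants and 6.06 ± 3.75 FPKM in controls (SD, n = 5 each). The difference of mean log2(FPKM + 1) had the opposite sign, at -0.04 (95% interval -1.33 to 1.26, limma, adjusted p = 0.989). Once the set entered the fit as a second term, the value was 0.32 (95% interval -0.21 to 0.84, adjusted p = 0.595).

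Col1a2 followed Col1a1. It lay at 17.6, 18.7, 24.9, 6.98 and 7.35 FPKM in mutants 1 to 5, and at 16.5, 19.9, 12.7, 8.45 and 6.47 FPKM in controls 1 to 5. The log2 difference was 0.17 (95% interval -0.72 to 1.05, limma, adjusted p = 0.917). Per length Col1a2 exceeded Col1a1 by 1.83 to 5.02 times, and in all 10 libraries.

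Col3a1 encodes type III collagen, which forms mixed fibres with type I in soft tissue and vessel walls. It lay at 54.7, 60.4, 81.9, 28.9 and 38.4 FPKM in mutants 1 to 5, and at 54.1, 68.1, 39.0, 28.2 and 31.0 FPKM in controls 1 to 5. Mutant 3 and control 2 were again the highest. The log2 difference was 0.25 (95% interval -0.42 to 0.92, limma, adjusted p = 0.8294).

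Of 28 other collagen and collagen processing genes listed, 21 were tested and 0 passed between genotypes. Their median log2 difference was 0.09, against 0.11 for all tested genes. Plod3, a lysyl hydroxylase that prepares collagen for crosslinking, averaged 5.29 ± 0.646 FPKM in mutants and 4.33 ± 0.476 FPKM in controls (SD, n = 5 each, log2 difference 0.24, limma, adjusted p = 0.579). Col12a1, a collagen on the surface of fibres, averaged 3.55 ± 1.79 FPKM in mutants and 2.19 ± 0.653 FPKM in controls (adjusted p = 0.597). Of the 16 basement membrane genes, all tested, 0 passed. Lama4 and Lamb1, which encode laminin chains, had the smallest p there, at log2 differences of 0.37 and 0.33 (adjusted p = 0.588 and 0.597).

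Dcn and Lum encode decorin and lumican, small leucine-rich proteoglycans that bind collagen and set the width of its fibres. They are neighbours on chromosome 10 (GRCm38), Dcn from 97479609 to 97518143 and Lum from 97565128 to 97572703, with 46984 bases between them. Dcn lay at 14.2, 12.8, 21.03, 10.3 and 14.5 FPKM in mutants 1 to 5, and at 13.7, 14.5, 13.5, 5.70 and 12.1 FPKM in controls 1 to 5. Lum lay at 26.8, 25.05, 31.9, 22.0 and 30.1 FPKM in mutants 1 to 5, and at 29.0, 25.6, 20.8, 10.8 and 27.6 FPKM in controls 1 to 5. Control 4 was the lowest library for both genes, and the other controls overlapped with the mutants.

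The log2 difference was 0.30 for Dcn (95% interval -0.22 to 0.82, adjusted p = 0.731) and 0.31 for Lum (95% interval -0.19 to 0.81, adjusted p = 0.709), both by limma. Without control 4 these values were 0.08 for Dcn and 0.07 for Lum. The ratio of Lum to Dcn stayed between 1.52 and 2.28 in all 10 libraries and averaged 1.91 in mutants and 1.92 in controls (exact two-sided permutation test, p = 0.952). Of 8 other genes listed for this proteoglycan family 3 were tested and 0 passed. Kera, the cornea gene of the family, and 4 others averaged under 1 FPKM.

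**Figure D2:**
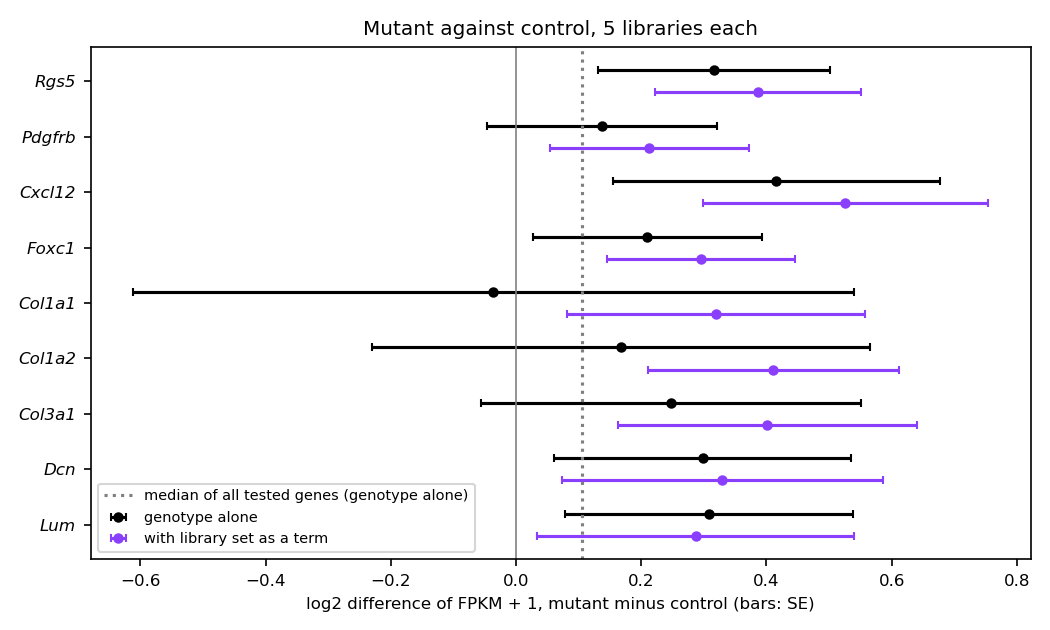
Log2 difference of FPKM + 1, mutant minus control, for each of the 9 genes (x axis, bars are SE), with genotype as the single term (black) and with the library set as a second term (purple). The dotted line marks the median of all tested genes with genotype alone, at 0.11, which was 0.09 with the set term. None of the 9 passed the threshold in either fit.

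The median log2 difference of the 9 genes was 0.25, with 8 of 9 above 0, where 75.7% of all tested genes lay above 0 with a median of 0.11. Without control 4 the median of the 9 was 0.11, that of all tested genes 0.13, and 2 of the 9 lay above it. Their summed level was 134 ± 43.4 FPKM in mutants and 112 ± 37.1 FPKM in controls (SD, n = 5 each), with ranges of 81.9 to 197 FPKM in mutants and 66.8 to 161 FPKM in controls. With the library set as a term the differences were 0.21 to 0.53, all 9 above 0. Their median was 0.33, where all tested genes had a median of 0.09. In that fit 74 of all tested genes (0.547%) passed but 0 of the 9. Rgs5 (unadjusted p = 0.0357, adjusted p = 0.352) and Cxcl12 (0.0417, adjusted p = 0.374) had the smallest p of the 9 there, by limma. The share of all tested genes under an unadjusted 0.05 in that fit was not counted. Within the first set alone, 3 mutants against 4 controls, the differences were 0.29 to 0.55. They are not set beside a median of all tested genes in that fit. There 0 of the 9 passed, where 101 of all tested genes (0.747%) did. Within the second set, with its 1 control and no test, they ran from -0.10 for Lum to 0.46 for Cxcl12.

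Of the lists for other cells, the endothelial and microglial ones shared their highest library with most members. The summed endothelial genes ran from 65.1 to 118 FPKM in mutants and from 58.5 to 93.7 FPKM in controls, and 0 of 17 tested passed. The summed microglia and macrophage genes ran from 42.9 to 134 FPKM in mutants and from 28.5 to 66.9 FPKM in controls. Of their 11 tested members 0 passed, with a median log2 difference of 0.58 and Fcer1g and Mrc1 at the smallest p (log2 differences 0.68 and 0.56, limma, adjusted p = 0.414 and 0.439). With the set in the fit, 2 of the 11 rose in mutants, C1qa at 1.25 (adjusted p = 0.0089) and Fcer1g at 0.82 (adjusted p = 0.0391). Mutant 3 had the highest sum of both lists, and it had the highest level of 7 of the 9 members. Control 4 had the lowest endothelial sum and the lowest level of Cxcl12, Foxc1, Col3a1, Dcn and Lum. Other lists went otherwise in part. Among mutants the erythroid sum was lowest in mutant 3 (5403 FPKM), but over all libraries it was lowest in control 4 (3911 FPKM), like those members. The surface ectoderm sum was highest of all in control 4 (11.3 FPKM). The amount of meningeal and vascular tissue taken with each telencephalon is not recorded in the labels, and its part in these levels was not tested.

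The remaining lists showed no call. Erythroid genes summed to 5403 to 10171 FPKM in mutants and 3911 to 9712 FPKM in controls, with Hba-a1 and Alas2 at log2 differences of 0.50 and 0.41 (limma, adjusted p = 0.617 and 0.652). Choroid plexus and hem genes summed to 231 to 450 FPKM in mutants and 282 to 473 FPKM in controls, with Folr1 and Rspo1 at -0.32 and 0.32 (adjusted p = 0.6251 and 0.649). Cortical progenitor and neuron genes summed to 516 to 591 FPKM in mutants and 358 to 533 FPKM in controls, with control 4 the lowest. Eomes and Fabp7 had the smallest p there, at 0.38 and 0.35 (adjusted p = 0.517 and 0.534). Emcn and Erg among endothelial genes lay at 0.43 and 0.31 (adjusted p = 0.585 and 0.593), Col2a1 and Alpl among cartilage and bone genes at 0.05 and 0.06, and Krt8 and Krt18 among surface ectoderm genes at -0.35 and -0.15.

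**Figure D3:**
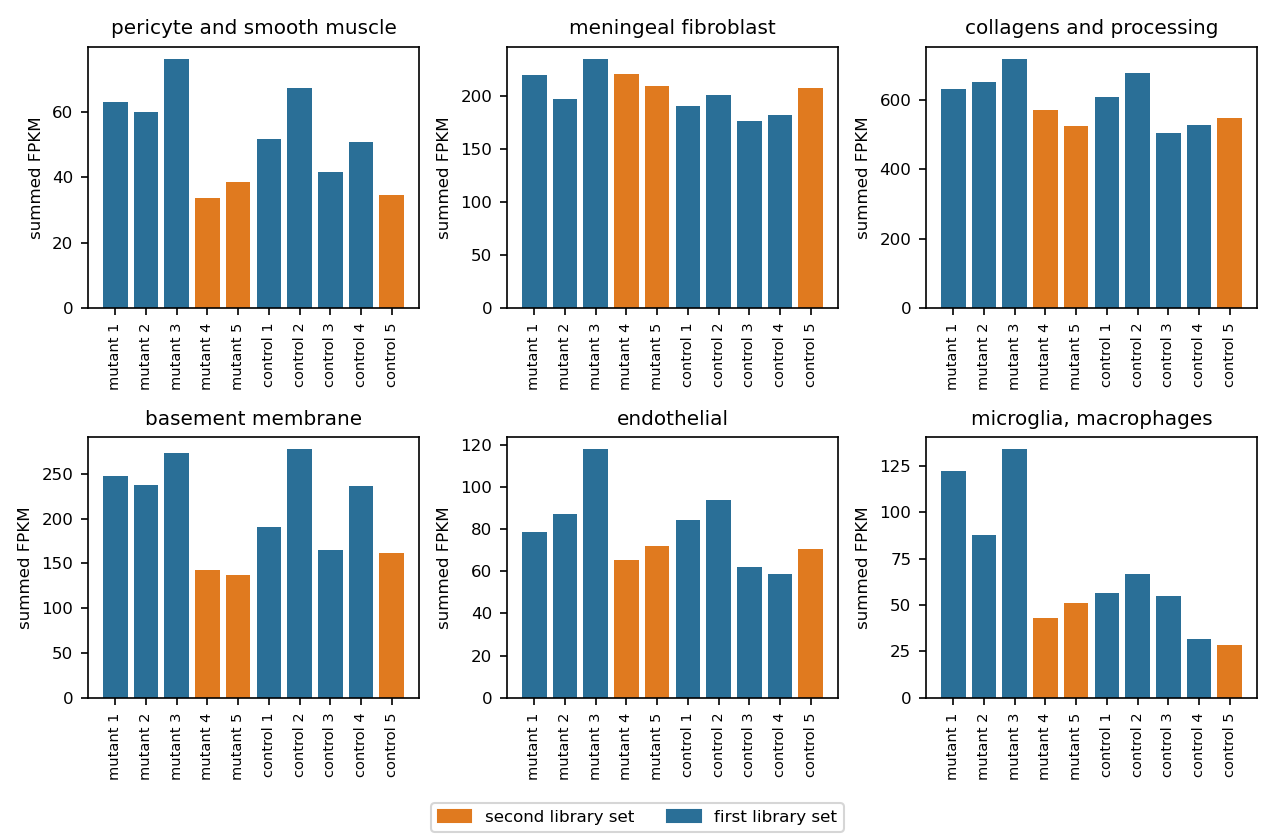
Summed FPKM (y axis, from 0) of 6 gene lists in each library, mutants left and controls right, coloured by library set. The second set, mutant 4, mutant 5 and control 5, lies lowest for basement membrane genes (137 to 161 FPKM). It also lies lowest for pericyte and smooth muscle genes (33.7 to 38.6 FPKM), but only with Notch3 counted in that sum. Notch3, also expressed by neural progenitors, gives 4.26 of 38.6 FPKM in mutant 5. It gives 10.8 of 41.7 FPKM in control 3 and 19.3 of 50.9 FPKM in control 4. Without Notch3, mutant 5 lies above those 2 controls. Mutant 3 lies highest for endothelial (118 FPKM) and microglial genes (134 FPKM).

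Between the library sets 2 of the 9 members passed. With genotype as a term, Col1a1 was lower in the second set by a log2 difference of -1.78 (SE 0.26, limma, adjusted p = 0.0014) and Col1a2 by -1.22 (SE 0.22, adjusted p = 0.00357). The second set held 1.46 to 2.00 FPKM of Col1a1, against 3.44 to 10.8 FPKM in the 7 other libraries. It held 6.47 to 7.35 FPKM of Col1a2, against 8.45 to 24.9 FPKM in those 7. In neither gene did the sets overlap. Such a gap, lower in the second set, was found for 6.28% of all tested genes. Of all tested genes 7.48% were called lower there, beside the 2 of 9 members. That share differed by transcript GC content. Among 10 bins of GC, the bin holding Col1a1 had 20.6% of its genes called lower and that holding Col1a2 16.9%.

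The other members did not pass in this contrast. Col3a1 lay at -0.77 (95% interval -1.35 to -0.19, adjusted p = 0.0639), and its sets met at 28.9 to 38.4 FPKM in the second and 28.2 to 81.9 FPKM in the first. Cxcl12, Foxc1, Pdgfrb and Rgs5 lay at -0.55, -0.43, -0.38 and -0.35, with adjusted p of 0.141, 0.0824, 0.138 and 0.179. Without control 4, the low library of the first set, Col3a1, Cxcl12 and Foxc1 passed as well, at -0.86, -0.63 and -0.48 (adjusted p = 0.00939, 0.0422 and 0.0231). In that fit 9.19% of all tested genes were called lower and 17.2% higher, 26.4% in all. Dcn was at -0.16 (95% interval -0.78 to 0.47, adjusted p = 0.727) and Lum at 0.11 (95% interval -0.51 to 0.73, adjusted p = 0.814), and neither passed without control 4. For Lum, 22.0 to 30.1 FPKM in the second set fell inside the 10.8 to 31.9 FPKM of the first.

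Ratios within a library show the same gap free of library scaling. They are not free of base composition, treated below, since Lum had 41.9% GC, Col1a1 58.9% and Col3a1 52.5%. The share of other gene pairs with such a gap was not counted. Lum stood at 11.02, 20.5 and 17.5 times Col1a1 in mutant 4, mutant 5 and control 5, and at 2.37 to 3.54 times in the first set. Col3a1 stood at 1.31, 1.28 and 1.12 times Lum in the same 3 libraries, and at 1.86 to 2.66 times in the first set. In both ratios the sets did not overlap, while mutants and controls did (exact two-sided permutation tests between genotypes, p = 0.611 and 0.817). Control 4, low in collagens and proteoglycans alike, sat with the first set in both ratios.

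**Figure D4:**
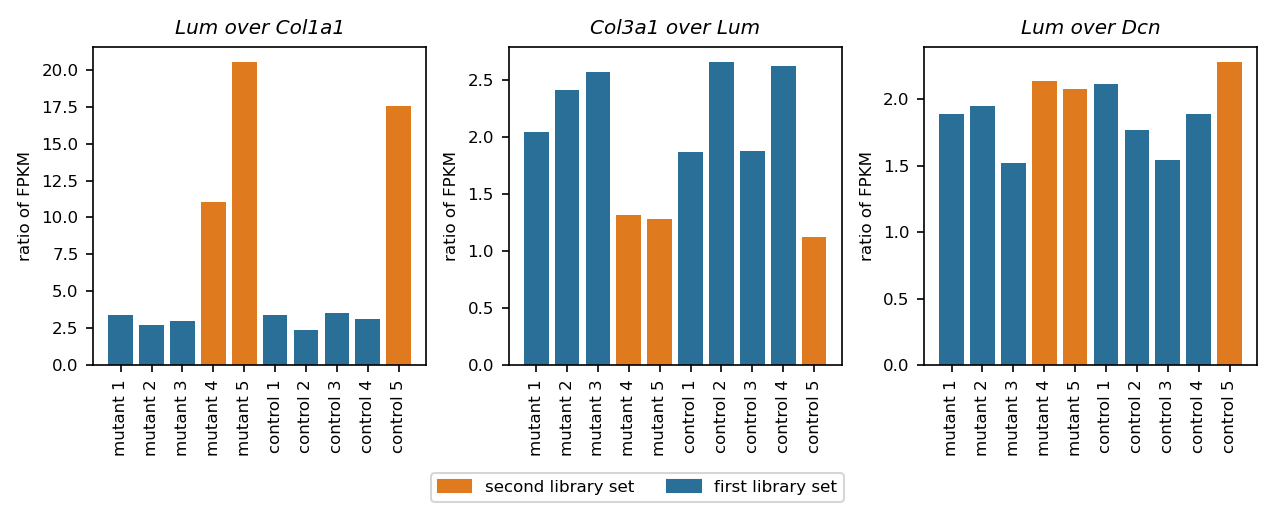
Ratio of FPKM (y axis, from 0) of Lum to Col1a1, of Col3a1 to Lum and of Lum to Dcn in each library, mutants left and controls right, coloured by library set. The second set stands at 11.02 to 20.5 for Lum over Col1a1 against 2.37 to 3.54 in the first, while Lum over Dcn stays between 1.52 and 2.28 in all libraries.

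Some other matrix genes were lower in the second set as well. Of the 21 tested collagen and processing genes outside the 9, 6 were called lower and 2 higher, and of the 16 basement membrane genes 8 lower and 0 higher, against 7.48% lower and 13.3% higher among all tested genes. Col5a1, a regulator of collagen fibre assembly, lay at -1.05 (SE 0.15, limma, adjusted p = 0.000823), and Lox, which crosslinks collagen, at -0.94 (adjusted p = 0.0154). Bgn, which encodes biglycan, a relative of decorin, lay at -0.85 (adjusted p = 0.0171). Hspg2, which encodes perlecan of basement membranes, lay at -1.17 (adjusted p = 0.00103). The 2 called higher were Plod2 and Leprel1, enzymes that hydroxylate collagen, at 0.56 and 0.57 (adjusted p = 0.0421 and 0.035). These genes were named after their values in this contrast were seen. Col5a2, a partner of Col5a1 in fibre assembly, lay at -0.28 and did not pass (adjusted p = 0.244).

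Among the other pericyte and smooth muscle genes 3 of 9 were called lower in the second set, Notch3 at -1.40 (limma, adjusted p = 0.000387), Tagln at -0.90 (adjusted p = 0.0243) and Vtn at -0.65 (adjusted p = 0.0342). Notch3, a receptor of mural cells, is also expressed by neural progenitors. Of the 11 microglia and macrophage genes 7 were lower and of 17 endothelial genes 2. Among the 17 other meningeal genes 1 was lower, S100a6 at -0.87 (adjusted p = 0.0101), and 0 were higher. Of all tested genes 7.48% were called lower and 13.3% higher, and the endothelial and meningeal counts lay near the share called lower.

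Base composition moved with this contrast. Tested genes were cut into 10 equal bins of transcript GC content. In the lowest bin (median 39.5%) the median difference between the sets was 0.27, and in the highest (median 59.5%) it was -0.16. Of the genes in the lowest bin 1.41% were called lower in the second set, and of those in the highest 20.6%. The counts of the gene lists were not set against genes of like GC content. The longest annotated transcript had 58.9% GC for Col1a1, 55.7% for Col1a2 and 52.5% for Col3a1, against 41.9% for Lum and 37.4% for Dcn. Foxc1 had 55.9% and Pdgfrb 54.9%, with differences of -0.43 and -0.38 between the sets. Their means were 2.23 and 2.11 FPKM, against 13.9 FPKM for Col1a2, and log2(FPKM + 1) understates change at low levels. In plain FPKM, without that added 1, they still moved less than Col1a2. The mean of the second set was 0.672 times that of the first for Foxc1, 0.687 times for Pdgfrb and 0.409 times for Col1a2. After each library was centred within 20 bins of GC, Col1a1 still differed by -1.64 (SE 0.30, limma, adjusted p = 0.00494) and Col1a2 by -1.12 (SE 0.25, adjusted p = 0.0135), with 10.9% of all tested genes called lower. Rgs5, at 41.1% GC, passed after this correction, at -0.62 (adjusted p = 0.0376), and Lum (-0.13) and Dcn (-0.45) did not. The part of base composition in the collagen difference was not tested further.

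**Figure D5:**
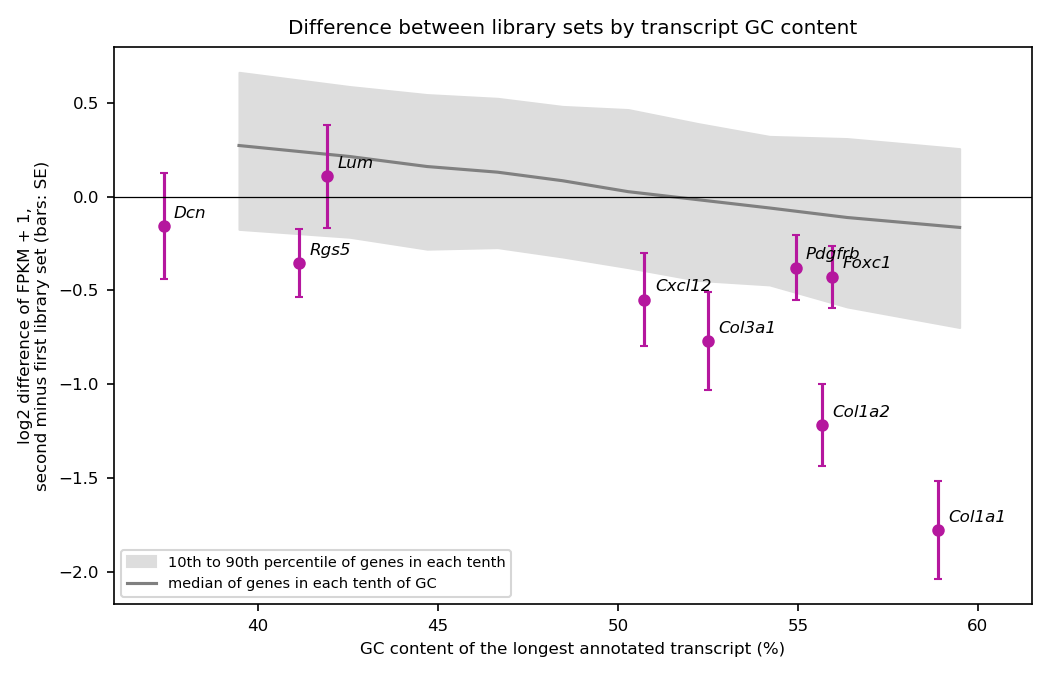
Log2 difference of FPKM + 1, second minus first library set (y axis, bars are SE), against the GC content of the longest annotated transcript (x axis) for the 9 genes. The line and the band give the median and the 10th to 90th percentile of all tested genes in each of 10 bins of GC. Col1a1 (-1.78), Col1a2 (-1.22), Col3a1 (-0.77), Cxcl12 (-0.55) and Rgs5 (-0.35) lie under the band of their bin.

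Likeness over the libraries was measured as Pearson's r of log2(FPKM + 1) after removal of the mean of each genotype, and is given as a description, since the points share library and depth. Because the sets stand apart, the r within the 7 libraries of the first set is printed. Col1a2 was at 0.99 with Col3a1 and 0.97 with Col1a1. Dcn was at 0.95 with Lum, and Rgs5 at 0.91 with Pdgfrb. Col1a1 and Lum, which the second set pulls apart, were at 0.93 within the first set.

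Among all other tested genes the 3 most like each member were ranked over the 10 libraries. For Rgs5 they were Gab2, Cthrc1 and Aif1, with r of 0.94, 0.95 and 0.91 over the 7 libraries of the first set. For Pdgfrb they were Hsd17b11, S1pr3 and Kank4 (0.98, 0.91 and 0.98), and for Cxcl12 Cldn11, Islr and Cthrc1 (0.95, 0.98 and 0.97). Foxc1 was nearest to Tpm1, Kif26b and Myl9 (0.96, 0.97 and 0.93). Tpm1 and Myl9 encode proteins of the contractile cytoskeleton. Aif1, like C1qa below, is a gene of microglia and macrophages.

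For Col1a1 they were C1qa, Maged2 and Cyba (0.78, 0.95 and 0.96), and for Col1a2 the growth factor gene Igf2, C1qa and Lox (0.96, 0.89 and 0.97). Col3a1 was nearest to Lrrc17, Anxa2 and Rcsd1 (0.96, 0.98 and 0.96). Dcn was nearest to Sesn1 and Neurod6 (0.97 and 0.98), and Lum to Txnip, Rnf217 and Snx2 (0.93, 0.99 and 0.95). Neurod6 is a gene of cortical neurons.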

How the data were processed

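Total RNA libraries of 5 mutants and 5 controls were made with the TruSeq stranded kit after Ribo-Zero removal of ribosomal RNA, per the labels' protocols. The authors deposited 1 list of FPKM values per library, 38803 symbols each. The labels and files do not print the unit's name, which rests on the description of the files given with the series and on values that behave as per-length ones. HISAT2 and GRCm38 (mm10) are named in the submitters' processing notes, while the program behind the FPKM values, its annotation and any use of strand are not named there. No member overlaps an annotated gene on the opposite strand. On the same strand Col1a2 overlaps Gm43921 and Col3a1 overlaps Gm47302.

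Values were tested as log2(FPKM + 1), which understates the change of low genes, with limma 3.58.1 in R 4.3.3 (intensity trend, robust moderation, no term but genotype). A gene needed 1 FPKM or more in 5 or more libraries, which left 13522, with Benjamini-Hochberg adjustment and a threshold of 0.05. Single ratios were compared by exact permutation over all 252 splits. The script was tested on simulated data. Fragment numbers are not stated. Depth was estimated from the most frequent FPKM step of single-transcript genes, so no counting intervals are given. Library sets were divided at 100 FPKM of Rnu12. Transcript GC, from GENCODE M21, was found for 94.2% of tested genes. Tables and plots used Python 3.11.15, pandas 2.3.3 and matplotlib 3.10.9.

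Whether libraries stand for separate embryos is not stated, and p-values measure only the spread among these libraries, which may be technical. The members and the 14 gene lists were chosen with earlier results of these data known. Between genotypes the genes of each list past the threshold, or else the 2 with the smallest p, are named, with the 3 genes most like each member, of which 1 is not reported here. The contrast of the library sets, the GC correction and the fits without control 4 with the set term were added after seeing the data, and list genes named in the set contrast were picked after their values were seen.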

Additional observations from a re-analysis of the deposited data

Results flagged for a closer look

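In groups of 5 libraries, a value was picked out when its gap to the nearest of the others exceeded 0.71 of the group's range. Of 70 groups of member levels, list sums and ratios examined, 6 held such a value, and chance alone gives about 5% of groups. Pdgfrb in control 2 lay at 2.92 FPKM, apart from the other controls, the nearest of which was at 1.88 FPKM. Dcn in control 4 lay at 5.70 FPKM, and the nearest control at 12.1 FPKM. Control 4 was also the lowest library for Lum and the shallowest by estimated depth.

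The other 4 were ratios. Control 5, the single control of the second library set, stood apart from the other controls for Col1a2 over Col1a1 (4.11, nearest 2.45), Col3a1 over Col1a1 (19.7, nearest 8.19) and Lum over Col1a1 (17.5, nearest 3.54). Among mutants, Rgs5 over Pdgfrb was 2.21 in mutant 5, against 1.66 in the nearest mutant.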

How the results depend on the processing

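Members called stayed at 0 in all 22 alternatives. The count over all genes, 21 as reported, was 35 with quantile normalization, 2 without a filter on low values, 74 with the library set as a term, 101 in the first set alone, 43 with GC correction, 96 with GC correction and the set term and 143 with the set term and without control 4. Leaving out 1 library gave 2 to 79, with 79 for control 5, 11 for control 4, 10 for mutant 5, 9 for mutant 1, 4 for control 3 and 2 for each of mutant 2, mutant 3, control 1 and control 2. Scaling to a median ratio gave 11 higher and 19 lower genes, against 12 and 9, and brought the median of all genes to 0.0016. The log2 difference of Col1a1, -0.04, turned positive in 9 alternatives, among them the set term (0.32), the first set alone (0.41), the set term without control 4 (0.13) and GC correction with the set term (0.20). Over all single libraries left out it ran from -0.35 to 0.29, and that of Col1a2 from -0.043 to 0.38. The other 7 members kept their direction but not their size. Without mutant 3 Pdgfrb was at 0.0033, Col3a1 at 0.07 and Rgs5 at 0.17, and without control 4 Foxc1 was at 0.13 and Col3a1 at 0.11. The summed members, 0.27 as reported, were at 0.10 without control 4 and 0.12 without mutant 3. Between library sets, Col1a1 and Col1a2 passed in all 15 alternatives. Lum changed sign with quantile normalization (-0.023), GC correction (-0.13) and without control 4 (-0.01) or control 5 (-0.10), over a range of -0.10 to 0.27 for single libraries left out, and Dcn without mutant 4 (0.0028; range -0.33 to 0.0028). Col3a1 also passed with quantile normalization (adjusted p = 0.0462). Replicate numbers were not taken to pair the libraries, since same-numbered deviations correlated over 0.1 in 3 of 5 pairs and not in all (-0.11 to 0.52). As a hint from the data, 3 of 5 mutants resembled most the control of their number. Mutant 4 and mutant 5 both resembled most control 5, the single control of the second set. The match of mutant 5 thus cannot be told apart from the library sets. With the replicate number as a block (replicate block) 14 genes and 0 members passed, with the SE of Col1a1 at 0.18 against 0.58. Pseudocounts and filters could not change summed levels. Depth limits the low members most, Foxc1 resting on about 76 to 360 fragments.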
